A study of Mus musculus with 13 samples.

Results

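The genes described here lie on mouse chromosome 14 between the first annotated genes and the start of the T cell receptor alpha and delta (Tra and Trd) locus, on the centromeric side of that locus. Members were chosen by position and by level: the gene had to end before base 52427928 of chromosome 14 (build GRCm38), where the locus begins, and its normalized count had to be 10 or more in 3 or more of the 13 libraries. Of the 43629 genes in the deposited table, 871 lay in this stretch and 224 of them passed the level filter. After 4 genes with names beginning Rpl, Rps or Col were left out, 220 members remained of the 15872 genes tested in all. They run from Gm3468 to Sall2 (chr14:6020654-52328762), and 193 of them are protein coding. The other 647 genes of the stretch stayed under the level filter, 450 of them at 0 in every library, and none of the 36 olfactory receptor genes there became a member.

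Messenger RNA of the thymus was sequenced in 3 groups of mice, 1 library per animal. A first group of 5 libraries came from thymic lymphomas of Atm-/- mice on the 129S6/SvEv strain, which lack the ATM kinase. In a second group, 5 thymic lymphomas arose in Rag2c/c p53-/- mice of mixed C57BL/6 and 129S6/SvEv background, which carry a RAG2 protein cut short at its C terminus and lack p53. The comparison group was 3 thymuses of wild type C57BL/6 mice, whose labels mark them as re-used from earlier work. Animal ages are not given in the labels, and strain and origin go with the groups, so that genotype, tumor state and strain cannot be told apart in any comparison below. Sex went with the groups in part as well. Xist, made from the inactive X chromosome of females, read 26404 to 30159 in wild type thymus, 7306 to 14060 in Atm-/- lymphomas 1 to 3, 2 in Atm-/- lymphomas 4 and 5, and 0 to 3 in Rag2c/c p53-/- lymphomas. Y-linked Ddx3y was at 0 in wild type thymus and Atm-/- lymphomas 1 to 3, at 831 and 1178 in Atm-/- lymphomas 4 and 5, and at 263 to 2379 in Rag2c/c p53-/- lymphomas.

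The Tra and Trd locus is cut and rejoined in developing thymocytes by the RAG1 and RAG2 endonuclease to assemble T cell receptor genes. The ATM kinase senses the resulting DNA breaks and holds the broken ends in place until they are joined. Thymic lymphomas of Atm-deficient mice are known for chromosome rearrangements with breaks in this locus, so the genes on its flanks are of interest in such tumors. Members are described here by their distance from the locus and by what they encode.

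Most members next to the locus were called higher in Atm-/- lymphomas, as given below, and the bases before the transcription start of 4 of those called, with 1 distant member for contrast, are printed to show what kind of promoter they have. Each run holds the 250 bases before the first listed start site in RefSeq (build GRCm38.p6), written 5′ to 3′ in the direction of the gene. Capitals mark the GC box GGGCGG, the CCAAT box CCAAT, and the same letters on the other strand, CCGCCC and ATTGG. Positions are chr14:52305125-52305374 (minus strand) for Mettl3, chr14:52278896-52279145 (plus strand) for Tox4, chr14:51884592-51884841 (plus strand) for Mettl17, chr14:50795729-50795978 (minus strand) for Ccnb1ip1 and chr14:21989602-21989851 (minus strand) for Zfp503.
Mettl3: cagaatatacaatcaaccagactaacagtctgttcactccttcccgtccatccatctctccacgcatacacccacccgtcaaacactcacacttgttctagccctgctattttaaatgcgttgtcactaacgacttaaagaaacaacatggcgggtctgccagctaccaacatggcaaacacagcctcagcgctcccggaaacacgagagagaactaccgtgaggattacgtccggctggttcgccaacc
Tox4: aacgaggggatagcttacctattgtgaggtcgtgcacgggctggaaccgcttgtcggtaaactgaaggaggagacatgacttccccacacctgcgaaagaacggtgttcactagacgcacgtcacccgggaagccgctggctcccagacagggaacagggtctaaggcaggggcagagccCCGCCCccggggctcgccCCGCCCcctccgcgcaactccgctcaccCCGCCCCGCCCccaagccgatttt
Mettl17: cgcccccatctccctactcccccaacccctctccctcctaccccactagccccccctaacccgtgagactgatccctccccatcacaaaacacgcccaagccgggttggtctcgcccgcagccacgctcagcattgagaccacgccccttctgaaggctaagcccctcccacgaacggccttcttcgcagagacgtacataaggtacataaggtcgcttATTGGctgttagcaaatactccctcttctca
Ccnb1ip1: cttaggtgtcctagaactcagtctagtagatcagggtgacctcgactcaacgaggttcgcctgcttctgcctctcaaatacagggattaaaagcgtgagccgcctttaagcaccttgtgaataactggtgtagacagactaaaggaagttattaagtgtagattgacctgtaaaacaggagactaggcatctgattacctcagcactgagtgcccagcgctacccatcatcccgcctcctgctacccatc
Zfp503: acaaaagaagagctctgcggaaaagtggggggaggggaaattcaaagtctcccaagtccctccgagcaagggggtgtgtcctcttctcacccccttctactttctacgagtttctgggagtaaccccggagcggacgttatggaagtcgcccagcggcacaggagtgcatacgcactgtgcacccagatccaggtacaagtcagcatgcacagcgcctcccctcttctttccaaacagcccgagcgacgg
Neither box was present in all of these windows. Tox4 carried 4 GC boxes, Mettl17 carried 1 CCAAT box, and the windows of Mettl3, Ccnb1ip1 and Zfp503 held no match. Among 27018 promoters of the same length, 32.9% held a GC box and 34.5% a CCAAT box. Of the 220 members, 169 matched a promoter by symbol, and 56.2% of these held a GC box and 39.1% a CCAAT box. The 27018 promoters were not filtered by level as the members were, so these shares are not of like sets. Such a match is a description of letters and not a binding site.

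Column totals lay between 19788898 and 21591289 after the normalization of the authors. The value of 1 read, recovered from the steps between low values, put the depth at 6.68 to 38.8 M reads (M, 1000000) in wild type thymus, 9.24 to 23.6 M in Atm-/- lymphomas and 6.37 to 24.7 M in Rag2c/c p53-/- lymphomas. Atm levels were 1559 to 2274 in wild type thymus, 208 to 732 in Atm-/- lymphomas and 439 to 1315 in Rag2c/c p53-/- lymphomas, so that the 2 lymphoma groups overlapped. Trp53 read 4387 to 6341 in wild type thymus and 2018 to 5461 in Rag2c/c p53-/- lymphomas, and a whole-gene count does not show which exons of a disrupted allele remain. The summed level of 10 T lineage markers was 160821 to 242840 in wild type thymus, 59287 to 123174 in Atm-/- lymphomas and 98773 to 140736 in Rag2c/c p53-/- lymphomas, with no marker at 0. Summed levels of 7 fibroblast markers were 412 to 449, 4153 to 17483 and 2054 to 3905 in the same order, and those of 6 macrophage markers were 3389 to 3885, 6271 to 10874 and 3718 to 7640. For 6 markers of dividing cells the sums were 34836 to 40938, 31126 to 64247 and 36304 to 50665. The part of these other cells in the member results was not tested, and in bulk tissue fewer cells of a type and less RNA per cell cannot be told apart.

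Many members were higher in Atm-/- lymphomas than in wild type thymus. In a limma fit over all 13 libraries, 79 of the 220 members (35.9%) were called higher, at an adjusted p under 0.05 and a group mean of at least 10, against 20.8% of all genes tested. Another 30 members (13.6%) were called lower, against 23.5% of all genes. With a log2 change of 1 or more also required, 70 members were higher and 28 lower, against 12.6% and 17% of all genes. The median log2 fold change over the members was 0.65, with quartiles of -0.03 and 1.43, and that over all genes tested was -0.02. Through a single group, 6 members reached the level filter, 5 of them through wild type thymus and 1, Mmrn2, through Atm-/- lymphomas. Mmrn2 was not called in this comparison (limma, adjusted p = 0.095). The 5 were Ear6, Gm3468, Gm3696, Gm17173 and 4930431P03Rik, all called lower, so the lower count includes genes that had to differ. Others reached 10 in a second group, but in too few libraries to pass without the first. Of those called lower, Gm3636, Gm3739, Ear1, Fezf2 and Gm10044 needed wild type thymus to pass. Of those called higher, Rnase2a, Erc2, A930038B10Rik, 1810011H11Rik and Gm20699 needed Atm-/- lymphomas. The 30 members called lower became 15, 19 or 16 without wild type replicate 1, 2 or 3. Genes downstream of the locus on the same chromosome went the other way, with 31 of 288 called higher, 109 called lower and a median of -0.51.

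The position of the members on this scale was read in each library as a shift, the median over members of the log2 difference from the wild type mean, less the same median over all genes tested. Shifts of the 5 Atm-/- lymphomas were 0.72, 0.32, 0.58, 1.09 and 0.65 for replicates 1 to 5. Each of them was above the wild type values, which lay between -0.02 and 0.01. Among Rag2c/c p53-/- lymphomas the shifts were 0.2, -0.09, 0.59, -0.16 and 0.63, so that replicates 3 and 5 lay within the Atm-/- range and replicates 2 and 4 lay below 0. With no filter on low values the shift of replicate 2 was 0.16, so its sign is not settled. In every Atm-/- lymphoma the members' median was above that of each of the 19 other chromosomes, the nearest being chromosome 15 in 4 of the 5 libraries. Such a ranking sets part of a chromosome against whole chromosomes, whose medians can hide shorter raised stretches. Blocks of equal gene number are compared further below. Over the same 5 lymphomas the mean of the chromosome medians was 0.44 for chromosome 15, and the lowest was -0.24 for chromosome 12. Of the Rag2c/c p53-/- lymphomas, replicates 3 and 5 also had the members above all other chromosomes, whereas 5, 11 and 15 chromosomes were at or above them in replicates 1, 2 and 4.

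**Figure D1:**
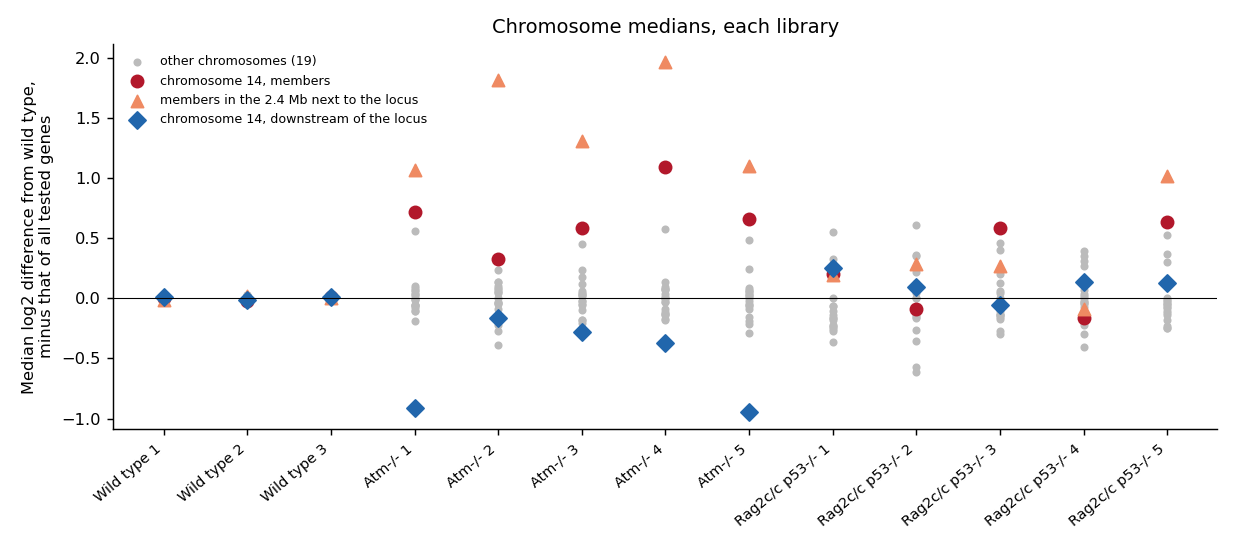
Median log2 difference from the wild type mean, less that of all genes tested, for each library (x axis) and each chromosome (y axis, log2 units), with wild type, Atm-/- and Rag2c/c p53-/- libraries from left to right. Red circles mark the 220 members, orange triangles the 31 members within 2.4 Mb of the locus, blue diamonds the 288 genes downstream of it and grey points the 19 other chromosomes. The members lie between 0.32 and 1.09 in Atm-/- lymphomas, and the triangles between 1.07 and 1.97.

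On average over the 5 Atm-/- lymphomas, the shift was largest next to the locus. The last 2.4 Mb before it, from Tlr11 to Sall2, hold 31 members. Of these, 21 (67.7%) rose in Atm-/- lymphomas and 2 (6.45%) fell, against 20.8% and 23.5% of all genes tested. The median log2 fold change of the 31 was 1.29. Shifts of these 31 members were 1.07, 1.82, 1.31, 1.97 and 1.1 in Atm-/- lymphomas 1 to 5, which on a linear scale is 2.1 to 3.91 times wild type. In Rag2c/c p53-/- lymphomas the same shifts were 0.19, 0.28, 0.27, -0.09 and 1.01, and replicate 5 stood above the other four.

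Regulators of RNA and chromatin were among the genes nearest to the locus. Mettl3 (chr14:52294668-52305128), the catalytic subunit of the enzyme that places N6-methyladenosine on messenger RNA, had normalized counts of 1419, 1381 and 1479 in wild type thymus, 4869, 7166, 5428, 6985 and 6209 in Atm-/- lymphomas and 1757, 1918, 1847, 1284 and 4591 in Rag2c/c p53-/- lymphomas. All 5 Atm-/- lymphomas exceeded every library of the other groups, and Rag2c/c p53-/- replicate 5 came closest to them. The log2 fold change of Mettl3 was 2.09 ± 0.3 (limma, adjusted p = 0.00016) between Atm-/- lymphomas and wild type thymus, where ± gives the standard error on the log2(value + 1) scale. Tox4 (chr14:52279146-52296391), a chromatin protein of the PTW/PP1 phosphatase complex, read 3858, 3544 and 3983 in wild type thymus, 8575, 8486, 8983, 10850 and 8971 in Atm-/- lymphomas and 4782, 2773, 4721, 3187 and 8700 in Rag2c/c p53-/- lymphomas. Its Atm-/- and Rag2c/c p53-/- values overlapped through replicate 5 of the latter, and its fold change from wild type was 1.27 ± 0.28 (limma, adjusted p = 0.0026). Supt16 (chr14:52160419-52197239), the large subunit of the FACT histone chaperone, read 5564, 4772 and 5657 in wild type thymus, 20692, 18810, 21623, 30169 and 24973 in Atm-/- lymphomas and 8542, 7650, 9318, 8172 and 19681 in Rag2c/c p53-/- lymphomas. Lymphoma 5 of the last group overlapped the Atm-/- range, and wild type thymus lay below all lymphomas. Supt16 rose by 2.11 ± 0.27 (limma, adjusted p = 5.7e-05) in Atm-/- lymphomas and also, by 0.91 ± 0.27 (limma, adjusted p = 0.017), in Rag2c/c p53-/- lymphomas, the latter call being lost without wild type replicate 2.

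Chd8, a chromatin remodeler, rose from 7895 ± 348 (SD, n = 3) in wild type thymus to 16033 ± 2100 (SD, n = 5) in Atm-/- lymphomas, a change of 1.01 ± 0.25 (limma, adjusted p = 0.0055). Hnrnpc, which binds nascent RNA, rose by 1.02 ± 0.2 (limma, adjusted p = 0.0012), and the zinc finger gene Zfp219 by 1.49 ± 0.3 (limma, adjusted p = 0.0015). Not every neighbour followed, since the transcription factor gene Sall2, the member closest to the locus, read 1568, 1485 and 1694 in wild type thymus and 3217, 1564, 3055, 1239 and 4878 in Atm-/- lymphomas (limma, adjusted p = 0.2). Rpgrip1 and Ndrg2 also ranged widely among the 5 Atm-/- lymphomas, from 159 to 1574 and from 697 to 2091, and were not called. Pairs such as Mettl3 with Tox4, Tox4 with Rab2b, and Zfp219 with Arhgef40 overlap on the chromosome, and the strand setting of the counting is not given in the sources used here, so reads of their overlaps may have been shared.

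Repair and growth genes lay in the same stretch. Arhgef40 (chr14:51984719-52006251), a guanine nucleotide exchange factor, read 207, 221 and 214 in wild type thymus, 3858, 4702, 2899, 8216 and 3810 in Atm-/- lymphomas and 497, 520, 1541, 1046 and 4275 in Rag2c/c p53-/- lymphomas. The wild type values lay below every lymphoma of either genotype, with fold changes of 4.36 ± 0.56 (limma, adjusted p = 6.9e-05) in Atm-/- and 2.39 ± 0.56 (limma, adjusted p = 0.0052) in Rag2c/c p53-/- lymphomas. Apex1 (chr14:50924968-50927139), the main endonuclease at abasic sites in base excision repair, read 1271, 1241 and 1134 in wild type thymus, 5771, 10484, 7080, 11326 and 4305 in Atm-/- lymphomas and 1606, 3526, 2118, 2890 and 4513 in Rag2c/c p53-/- lymphomas. Both lymphoma groups lay above wild type thymus, by 2.59 ± 0.34 (limma, adjusted p = 8.2e-05) in Atm-/- lymphomas and by 1.18 ± 0.34 (limma, adjusted p = 0.016) in Rag2c/c p53-/- lymphomas, where the call was lost without wild type replicate 3. Parp2 (chr14:50807946-50821300), a poly(ADP-ribose) polymerase activated by DNA breaks, read 1183, 1059 and 1143 in wild type thymus, 3569, 4599, 4265, 6402 and 2837 in Atm-/- lymphomas and 1743, 1760, 1747, 1462 and 3180 in Rag2c/c p53-/- lymphomas. Every lymphoma exceeded wild type thymus, with a rise of 1.89 ± 0.26 (limma, adjusted p = 0.00011) in Atm-/- lymphomas. The smaller rise of Parp2 in Rag2c/c p53-/- lymphomas, 0.75 ± 0.26 (limma, adjusted p = 0.037), was lost without any 1 wild type library or without lymphoma 5.

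Mettl17 (chr14:51884842-51893039), needed for assembly of the mitochondrial ribosome, read 975, 864 and 946 in wild type thymus, 2915, 7052, 4150, 6007 and 3866 in Atm-/- lymphomas and 1043, 1601, 1679, 950 and 3049 in Rag2c/c p53-/- lymphomas. The Atm-/- values lay above wild type thymus and overlapped those of the other lymphomas through replicate 5, and the rise was 2.3 ± 0.35 (limma, adjusted p = 0.00021). Osgep, of the complex that makes a modified base in transfer RNA, rose by 1.6 ± 0.27 (limma, adjusted p = 0.00042), and Ttc5, a cofactor of p53, by 1.14 ± 0.32 (limma, adjusted p = 0.011). Pnp, the purine nucleoside phosphorylase whose loss is toxic to T cells, rose by 1.29 ± 0.33 (limma, adjusted p = 0.007).

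Ccnb1ip1 (chr14:50789249-50795728), a ubiquitin ligase needed for crossovers in meiosis, was listed at 0, 0 and 0 in wild type thymus, 225, 607, 292, 592 and 112 in Atm-/- lymphomas and 3, 54, 44, 19 and 199 in Rag2c/c p53-/- lymphomas. It was called higher in both lymphoma groups (limma, adjusted p = 3.3e-05 and 0.0014), and no fold is given against a group at 0. Rnase2a, a secreted ribonuclease of eosinophils, read 3, 0 and 1 in wild type thymus and 273, 21, 400, 30 and 259 in Atm-/- lymphomas (limma, adjusted p = 0.00094). It passed the level filter only with Atm-/- lymphomas counted. Rnase2a and Ear6 belong to a family of near-identical copies, so their reads may be split among copies. The 2 members of the stretch that fell in Atm-/- lymphomas were Ear6, at 13, 16 and 21 in wild type thymus and 0 in all 5 lymphomas, and Rnase6, at -1.04 ± 0.37 (limma, adjusted p = 0.034), a call lost without wild type replicate 1 or 3 or Atm-/- lymphoma 3 or 4. Ear6 reached the level filter through wild type thymus alone, so its lower value in lymphomas was fixed by the filter.

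**Figure D2:**
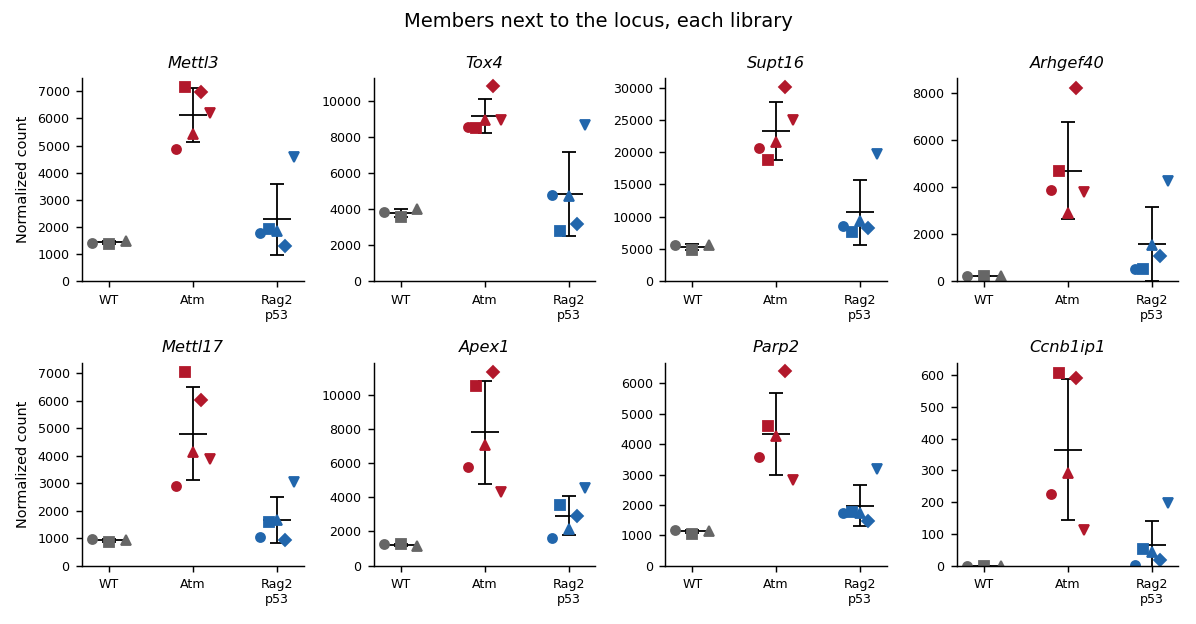
Normalized counts (y axes, linear, from 0) of 8 members next to the locus in wild type (grey), Atm-/- (red) and Rag2c/c p53-/- (blue) libraries, 1 point per library, with marker shapes for replicates 1 to 5 and black bars for the mean ± SD. In all 8 panels the 5 Atm-/- points lie above the 3 wild type points, and Rag2c/c p53-/- replicate 5 (downward triangle) is the highest of its group.

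The extent of the raised stretch differed between Atm-/- lymphomas. When the members were taken in blocks of 25 counted from the locus, with 45 in the last, the shifts of the first block (0.1 to 1.56 Mb from the locus) were 1.19, 1.86, 1.31, 2.0 and 1.26 in Atm-/- lymphomas 1 to 5. In the second block (1.56 to 5.6 Mb) they were 1.46, 1.16, 1.1, 1.54 and 0.98, and in the third (5.6 to 15.31 Mb) 1.06, 0.49, 0.99, 1.16 and 0.89. Up to this point all 5 lymphomas were above 0. In the fourth block (15.31 to 20.95 Mb) the values were 0.54, -0.57, 0.48, 0.79 and 0.53, so that lymphoma 2 dropped below wild type while the other four stayed above it. Lymphoma 2 remained at -0.16 and -0.19 in the next 2 blocks, where the others ranged from 0.75 to 1.53. Lymphomas 3 and 5 were highest in the sixth block (22.42 to 29.14 Mb), at 1.53 and 1.43. Lymphoma 1 was highest in the second block, and lymphomas 2 and 4 in the first. By the seventh block (29.37 to 31.97 Mb) lymphoma 4 stood at 1.42 and the other four at 0.17 to 0.46. In the last block, 32.03 to 46.41 Mb from the locus, all 5 were below 0, at -0.36, -0.17, -0.33, -0.08 and -0.26. Raised blocks were also found elsewhere, among 600 blocks of 25 genes on the other chromosomes. Of these, 1, 1, 1, 0 and 0 were at or above the first block in Atm-/- lymphomas 1 to 5. For the second block the counts were 0, 3, 3, 2 and 1. The highest of the 600 blocks stood at 1.35, 2.6, 1.48, 1.66 and 1.02 in the same order.

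Single genes did not always follow the values of their block. Psmc6, an ATPase of the proteasome cap in the third block (chr14:45329824-45349071), read 2174, 2358 and 2236 in wild type thymus and 9807, 11475, 11635, 9752 and 11261 in Atm-/- lymphomas, with no overlap, the lowest value in lymphoma 4 and a rise of 2.25 ± 0.24 (limma, adjusted p = 1.5e-05). Ncoa4, the receptor for ferritin turnover in the fourth block, read 1433, 1374 and 1400 in wild type thymus and 1281, 359, 1064, 1386 and 1040 in Atm-/- lymphomas, so that lymphoma 2 was lowest and all 5 lay below the wild type mean, although 4 of the 5 lymphomas had a block shift above 0. Dnajc9, a histone chaperone at the near end of the last block (chr14:20384638-20388910), read 2286, 2368 and 2174 in wild type thymus and 3349, 3514, 3845, 7669 and 3825 in Atm-/- lymphomas, with lymphoma 4 highest. It rose by 0.89 ± 0.25 (limma, adjusted p = 0.012) in Atm-/- lymphomas, in a block whose shift was below 0 in all 5.

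Among Rag2c/c p53-/- lymphomas the block values had no common pattern. Lymphoma 5 was above wild type in all 8 blocks, from 0.19 in the last to 1.11 in the second. Lymphoma 3 went from 0.27 in the first block to 1.54 in the seventh and -0.18 in the last. Gng2, a G protein gamma subunit 32.5 Mb from the locus, marked the same lymphoma, with 327, 311, 1012, 222 and 327 in Rag2c/c p53-/- lymphomas against 896, 773 and 808 in wild type thymus. Lymphoma 2 reached -0.74 and lymphoma 4 reached -0.6 in the third block, and lymphoma 1 stayed between -0.19 and 0.48 throughout.

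**Figure D3:**
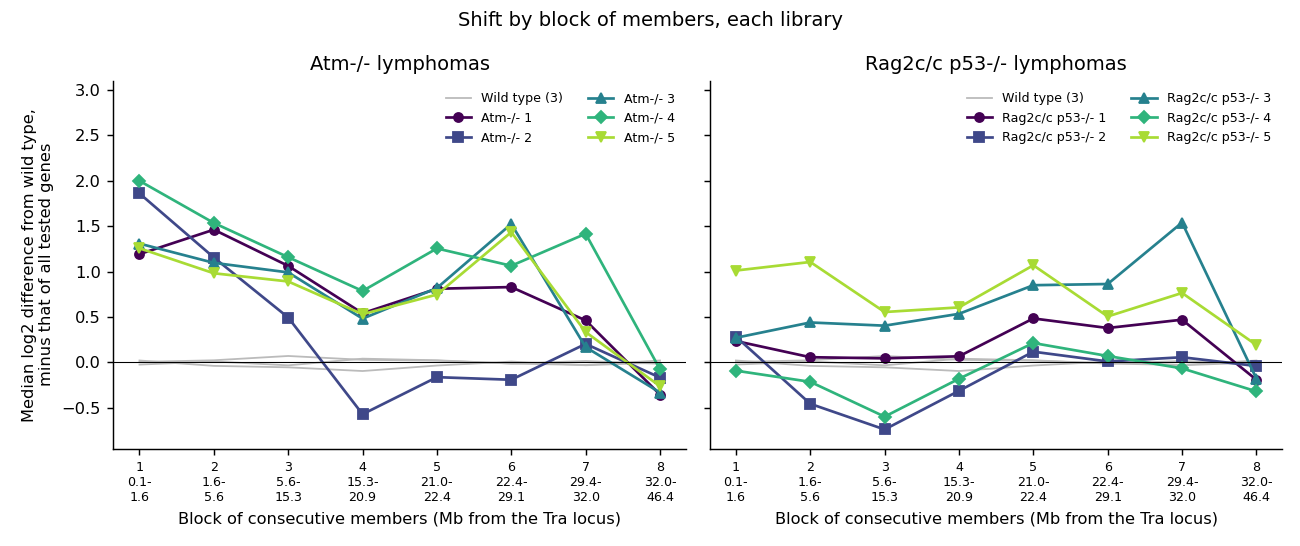
Shift of each library (y axis, log2 units) over 8 blocks of consecutive members ordered by distance from the locus (x axis, block number with its nearest and farthest distance in Mb), for Atm-/- lymphomas (left) and Rag2c/c p53-/- lymphomas (right), with the 3 wild type libraries in grey. All 5 Atm-/- lines start between 1.19 and 2.0 in block 1 and end between -0.36 and -0.08 in block 8.

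Members were also counted by function. Each count of members called higher or lower in Atm-/- lymphomas is to be read against the 20.8% and 23.5% of all genes tested. It is also to be read against the 35.9% and 13.6% of all members, and function and position were not separated. Of 10 members listed as cell cycle and growth genes, 7 rose and none fell in Atm-/- lymphomas as compared with wild type thymus, at a list median of 1.5. Dlgap5 (chr14:47387779-47418407), a spindle protein made in dividing cells, read 1504, 1514 and 1559 in wild type thymus, 11851, 5570, 8443, 13082 and 7471 in Atm-/- lymphomas and 4070, 2435, 4483, 3171 and 6751 in Rag2c/c p53-/- lymphomas. Wild type thymus was lowest without overlap, and the rise was 2.54 ± 0.31 (limma, adjusted p = 4.5e-05) in Atm-/- and 1.37 ± 0.31 (limma, adjusted p = 0.0042) in Rag2c/c p53-/- lymphomas. Cdkn3, a phosphatase acting on cyclin-dependent kinases, rose by 1.57 ± 0.26 (limma, adjusted p = 0.00035), and Gnl3, a nucleolar GTPase of proliferating cells, by 1.44 ± 0.25 (limma, adjusted p = 0.00054). Markers of dividing cells moved with these genes, since 5 of 6 also rose in Atm-/- lymphomas, and 3 of 6 did so in the Rag2c/c p53-/- group, and their part was not tested.

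DNA repair and replication genes gave 6 members higher and 1 lower of 12 in Atm-/- lymphomas, at a median of 0.92, and Osgep, a transfer RNA modification gene, is 1 of the 6. Wdhd1, a replication fork protein, rose from 1481 ± 84.1 (SD, n = 3) to 8077 ± 3300 (SD, n = 5), or by 2.33 ± 0.41 (limma, adjusted p = 0.00064). Parg, which removes poly(ADP-ribose), differed by 0.11 ± 0.39 (limma, adjusted p = 0.83) and Ercc6, of transcription-coupled repair, by -0.54 ± 0.38 (limma, adjusted p = 0.26). The gene that fell was Top2b, a DNA topoisomerase in the last block, with 12355, 13611 and 12806 in wild type thymus, 6335, 3916, 6098, 5629 and 6783 in Atm-/- lymphomas and 8764, 3702, 7691, 5633 and 11132 in Rag2c/c p53-/- lymphomas. Its wild type values exceeded all lymphomas, and the change was -1.19 ± 0.29 (limma, adjusted p = 0.005) in Atm-/- lymphomas. In Rag2c/c p53-/- lymphomas the change of Top2b was -0.9 ± 0.29 (limma, adjusted p = 0.026), a call lost without any 1 wild type library or without lymphoma 4.

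Metabolic and mitochondrial genes gave 12 members higher and 1 lower of 21, at a median of 0.93. Tkt, transketolase of the pentose phosphate pathway, read 5442, 7260 and 5461 in wild type thymus, 21755, 10052, 21158, 25898 and 18151 in Atm-/- lymphomas and 10033, 10973, 16592, 14929 and 15947 in Rag2c/c p53-/- lymphomas. Both lymphoma groups lay above wild type thymus, by 1.63 ± 0.27 (limma, adjusted p = 0.00043) and 1.16 ± 0.27 (limma, adjusted p = 0.005). Chdh, the mitochondrial choline dehydrogenase, rose by 1.97 ± 0.49 (limma, adjusted p = 0.0058) in Atm-/- lymphomas, and Vdac2, a channel of the mitochondrial outer membrane, by 1.07 ± 0.23 (limma, adjusted p = 0.0024). Of 18 chromatin and RNA regulators, 8 rose and 2 fell, at a median of 0.79, and those that fell, Kat6b and Atxn7, lie in the last 2 blocks. Kat6b is a histone acetyltransferase, and its call at -1.36 ± 0.47 had limma's adjusted p = 0.03 and was lost without any 1 wild type library or without Atm-/- lymphoma 2 or 3. Atxn7, of the SAGA complex, read 1745, 1793 and 1828 in wild type thymus, 480, 304, 270, 421 and 367 in Atm-/- lymphomas and 1090, 301, 534, 378 and 855 in Rag2c/c p53-/- lymphomas, a change of -2.31 ± 0.36 (limma, adjusted p = 0.00025) and -1.67 ± 0.36 (limma, adjusted p = 0.0029).

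Lymphocyte signalling genes gave 4 members higher and 2 lower of 20 in Atm-/- lymphomas, at a median of 0.26, so that the higher share was near the 20.8% of all genes. Mapk1ip1l, an interactor of a mitogen-activated kinase, read 3262, 3473 and 3416 in wild type thymus and 15019, 7317, 11736, 16700 and 10564 in Atm-/- lymphomas, a rise of 1.8 ± 0.32 (limma, adjusted p = 0.00067). Wdfy4 (chr14:32959547-33185508), known for antigen cross-presentation in dendritic cells, read 1130, 809 and 1372 in wild type thymus, 287, 69, 140, 169 and 213 in Atm-/- lymphomas and 138, 88, 209, 119 and 116 in Rag2c/c p53-/- lymphomas. It fell in both, with changes of -2.76 ± 0.41 (limma, adjusted p = 0.00018) and -3.06 ± 0.41 (limma, adjusted p = 0.00014), without overlap with wild type thymus. Markers of B cells, which also express Wdfy4, were lower too, at summed levels of 1397 to 1721 in wild type thymus, 90 to 261 in Atm-/- lymphomas and 82 to 476 in Rag2c/c p53-/- lymphomas, and their part was not tested. Secretory pathway genes gave 4 higher and 1 lower of 12 at a median of 0.34, with Exoc5, of the exocyst, at 1.26 ± 0.28 (limma, adjusted p = 0.0026) and Ngly1, which strips sugar chains from misfolded proteins, at -1.58 ± 0.24 (limma, adjusted p = 0.00024). Of 3 members listed as nuclear receptors or their partners, 2 fell, namely the thyroid hormone receptor Thrb (-3.21 ± 0.65 (limma, adjusted p = 0.0015)) and the clock repressor Nr1d2 (-1.36 ± 0.45 (limma, adjusted p = 0.025)), the second of which lost its call without wild type replicate 1 or 3.

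Matrix, vessel, phagocyte and secreted ribonuclease genes gave 4 higher and 4 lower of 17 in Atm-/- lymphomas, near the 20.8% and 23.5% of all genes. Those that fell were Dnase1l3, Anxa7, Rnase6 and Ear1, at log2 changes of -1.66, -1.14, -1.04 and -3.38. Ear1 passed the level filter only with wild type thymus counted. Vcl, vinculin of cell adhesions, read 222, 195 and 259 in wild type thymus, 1552, 831, 1340, 2833 and 1517 in Atm-/- lymphomas and 760, 557, 4160, 763 and 1519 in Rag2c/c p53-/- lymphomas. Every lymphoma exceeded wild type thymus, by 2.73 ± 0.54 (limma, adjusted p = 0.0013) in Atm-/- and 2.36 ± 0.54 (limma, adjusted p = 0.0043) in Rag2c/c p53-/- lymphomas, and Rag2c/c p53-/- lymphoma 3 was highest. Stab1, a scavenger receptor of macrophages and vessel lining, read 50, 39 and 46 in wild type thymus and 542, 190, 155, 904 and 340 in Atm-/- lymphomas, a rise of 2.92 ± 0.51 (limma, adjusted p = 0.00057). Lgals3, the galectin of macrophages, read 442, 374 and 372 in wild type thymus, 739, 489, 977, 825 and 803 in Atm-/- lymphomas and 1107, 1317, 1326, 1696 and 1072 in Rag2c/c p53-/- lymphomas, so that the latter group was highest without overlap. The fibroblast sums given above were higher in every lymphoma than in wild type thymus, and the macrophage sums were higher in every Atm-/- lymphoma. In Rag2c/c p53-/- lymphomas the lowest macrophage sum, 3718, lay within the wild type range of 3389 to 3885. The part of these cells in these genes was not tested.

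Zfp503 (chr14:21983962-21989601), a zinc finger repressor of the developing brain, stood 30.4 Mb from the locus. It read 6, 0 and 6 in wild type thymus, 925, 697, 220, 2989 and 545 in Atm-/- lymphomas and 91, 34, 758, 157 and 212 in Rag2c/c p53-/- lymphomas, with no overlap between wild type thymus and either lymphoma group. The changes were 7.67 ± 0.98 (limma, adjusted p = 6.2e-05) and 5.38 ± 0.98 (limma, adjusted p = 0.001). Its neighbour 1700112E06Rik read 10, 6 and 7 in wild type thymus and 114, 240, 53, 365 and 116 in Atm-/- lymphomas, a rise of 4.09 ± 0.75 (limma, adjusted p = 0.00081). Erc2, of the presynaptic active zone, was listed at 0 in wild type thymus and at 1655, 105, 2, 85 and 1 in Atm-/- lymphomas, so that its call rested on 3 libraries and was lost without lymphoma 1, 2 or 4 or without any 1 wild type library. Erc2 also passed the level filter only with Atm-/- lymphomas counted.

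Of the 6 members with the lowest log2 fold change in Atm-/- lymphomas, 5 lay in the block farthest from the locus, the other being Ear6, and both Gm3696 and Ear6 were among the members admitted through wild type thymus alone. Of the 45 members in the last block, 17 fell and 4 rose, at a median of -0.18, against 23.5% and 20.8% of all genes tested. The 17 include Gm3468 and Gm3696. Gm3636 (chr14:6735685-6742332) read 59, 62 and 62 in wild type thymus, 0, 0, 0, 0 and 0 in Atm-/- lymphomas and 3, 0, 5, 6 and 20 in Rag2c/c p53-/- lymphomas. Gm3468 and Gm3696 were likewise at 0 in all 5 Atm-/- lymphomas and at 11 to 13 and 13 to 17 in wild type thymus, but both passed the level filter through wild type thymus alone and so had to be lower. Gm2237 and Gm3739 reached at most 2 and 16 in Atm-/- lymphomas, against 53 to 62 and 68 to 78 in wild type thymus. Gm3636 and Gm3739 also passed the level filter only with wild type thymus counted, so the filter favoured lower values in lymphomas. These predicted genes have close copies at this chromosome end, so reads may be split among copies, and their absence goes with the 129S6/SvEv strain and cannot be told apart from it. Fezf2, a transcription factor of thymic epithelium, read 26, 23 and 32 in wild type thymus, 0, 0, 0, 0 and 1 in Atm-/- lymphomas and 2, 3, 18, 9 and 11 in Rag2c/c p53-/- lymphomas (limma, adjusted p = 8.3e-05 for Atm-/- against wild type). Fezf2 too passed the level filter only with wild type thymus counted. Summed markers of thymic epithelium were 725 to 1058, 189 to 609 and 287 to 1320 in the same groups, and their part was not tested. Gng2, at 162, 78, 121, 132 and 134 in Atm-/- lymphomas, fell by 2.75 ± 0.4 (limma, adjusted p = 0.00015).

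**Figure D4:**
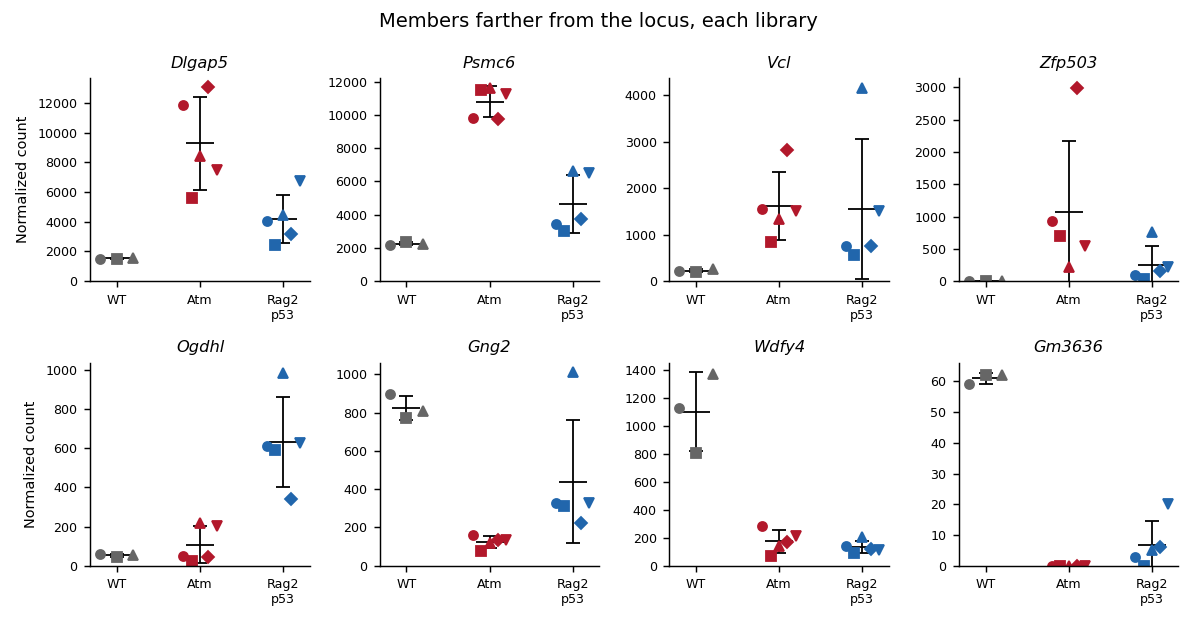
Normalized counts (y axes, linear, from 0) of 8 members farther from the locus in wild type (grey), Atm-/- (red) and Rag2c/c p53-/- (blue) libraries, 1 point per library, with marker shapes for replicates 1 to 5 and black bars for the mean ± SD, cut at 0 where the SD exceeds the mean. Dlgap5, Psmc6, Vcl and Zfp503 have all lymphomas above wild type, Wdfy4 and Gm3636 have all below, and Ogdhl is raised in the 5 Rag2c/c p53-/- points. Gm3636 passed the level filter only with wild type thymus counted.

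In Rag2c/c p53-/- lymphomas the share of members called higher was near that of all genes, and fewer were called lower. As compared with wild type thymus, 37 of 220 (16.8%) were called higher, against 17.4% of all genes tested, and 21 (9.55%) were called lower, against 19.7%. The 21 include Ear1, Ear6, Gm3468, Gm3636, Gm3696, Gm3739, Gm17173, 4930431P03Rik and Fezf2, which passed the level filter only with wild type thymus counted. With a log2 change of 1 or more also required, the counts were 20 and 19, against 9.77% and 13.9% of all genes. The median log2 fold change was 0.21, and that over all genes was -0.02. In the 2.4 Mb next to the locus, 5 of 31 members rose (16.1%) and 3 fell (9.68%), against the same 17.4% and 19.7%. Ogdhl, a relative of a citric acid cycle enzyme in the fourth block (chr14:32322019-32347820), read 60, 45 and 56 in wild type thymus, 50, 25, 219, 43 and 201 in Atm-/- lymphomas and 612, 591, 987, 340 and 626 in Rag2c/c p53-/- lymphomas. The Rag2c/c p53-/- values exceeded all others, by 3.46 ± 0.62 (limma, adjusted p = 0.00099) over wild type thymus. Cacna1d, a calcium channel subunit, rose from 62, 81 and 78 in wild type thymus to 99, 426, 1296, 622 and 1235 in Rag2c/c p53-/- lymphomas, 2.84 ± 0.83 (limma, adjusted p = 0.017), and the call was lost without wild type replicate 1 or 3. Tep1, of the telomerase and vault particles and only 1.56 Mb from the locus, read 1005, 793 and 1019 in wild type thymus and 637, 230, 566, 297 and 655 in Rag2c/c p53-/- lymphomas and fell by 1.09 ± 0.35 (limma, adjusted p = 0.027), a call lost without wild type replicate 1 or 3 or lymphoma 4. Without lymphoma 5, the 37 members called higher became 31. Leaving out wild type replicate 3 left 24 higher, and leaving out wild type replicates 1, 2 or 3 left 8, 9 or 8 of the 21 lower.

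Set directly against each other, the lymphomas of the 2 genotypes differed at the members mostly in 1 direction. In Atm-/- as compared with Rag2c/c p53-/- lymphomas, 55 of 220 members (25%) were called higher, against 5.08% of all genes tested, and 8 (3.64%) were called lower, against 6.33%. The 55 include Mmrn2, Rnase2a and 1810011H11Rik, which passed the level filter only with Atm-/- lymphomas counted, so the filter favoured higher values there. Requiring a log2 difference of 1 or more gave 48 higher and 3 lower, against 3.51% and 4.33% of all genes. The median difference was 0.38 over the members and 0.02 over all genes. Next to the locus, 21 of 31 members were higher and none lower by limma, at a median of 1.22. Downstream of the locus, 8 of 288 genes were higher and 79 lower. This comparison shares its libraries with the others, so their values are set side by side and not counted as separate evidence.

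Mettl3 differed between the lymphoma groups by 1.56 ± 0.26 (limma, adjusted p = 0.0021), Mettl17 by 1.58 ± 0.3 (limma, adjusted p = 0.0047) and Ttc5 by 1.48 ± 0.28 (limma, adjusted p = 0.0042). Psmc6 differed by 1.29 ± 0.2 (limma, adjusted p = 0.0014). Tep1, at 1466, 1021, 986, 1788 and 841 in Atm-/- lymphomas, was higher by 1.42 ± 0.3 (limma, adjusted p = 0.0094). Gm8113, a predicted gene in the third block, read 173, 66, 60, 299 and 95 in Atm-/- lymphomas and 19, 17, 28, 1 and 0 in Rag2c/c p53-/- lymphomas without overlap, a difference of 3.98 ± 0.86 (limma, adjusted p = 0.0099). Lower in Atm-/- lymphomas were Ogdhl (-2.97 ± 0.54 (limma, adjusted p = 0.0036)), Gng2 (-1.61 ± 0.34 (limma, adjusted p = 0.0091)), the dynein heavy chain gene Dnah1 (-2.1 ± 0.44 (limma, adjusted p = 0.0078)) and Lgals3 (-0.78 ± 0.19 (limma, adjusted p = 0.017)). Arhgef40 was higher by 1.97 ± 0.49 (limma, adjusted p = 0.02), and this call was lost without Atm-/- lymphoma 4. The count of 55 became 32 without Atm-/- lymphoma 4 and 36 without Rag2c/c p53-/- lymphoma 4, and it was 30 when wild type thymus was left out of the fit.

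**Figure D5:**
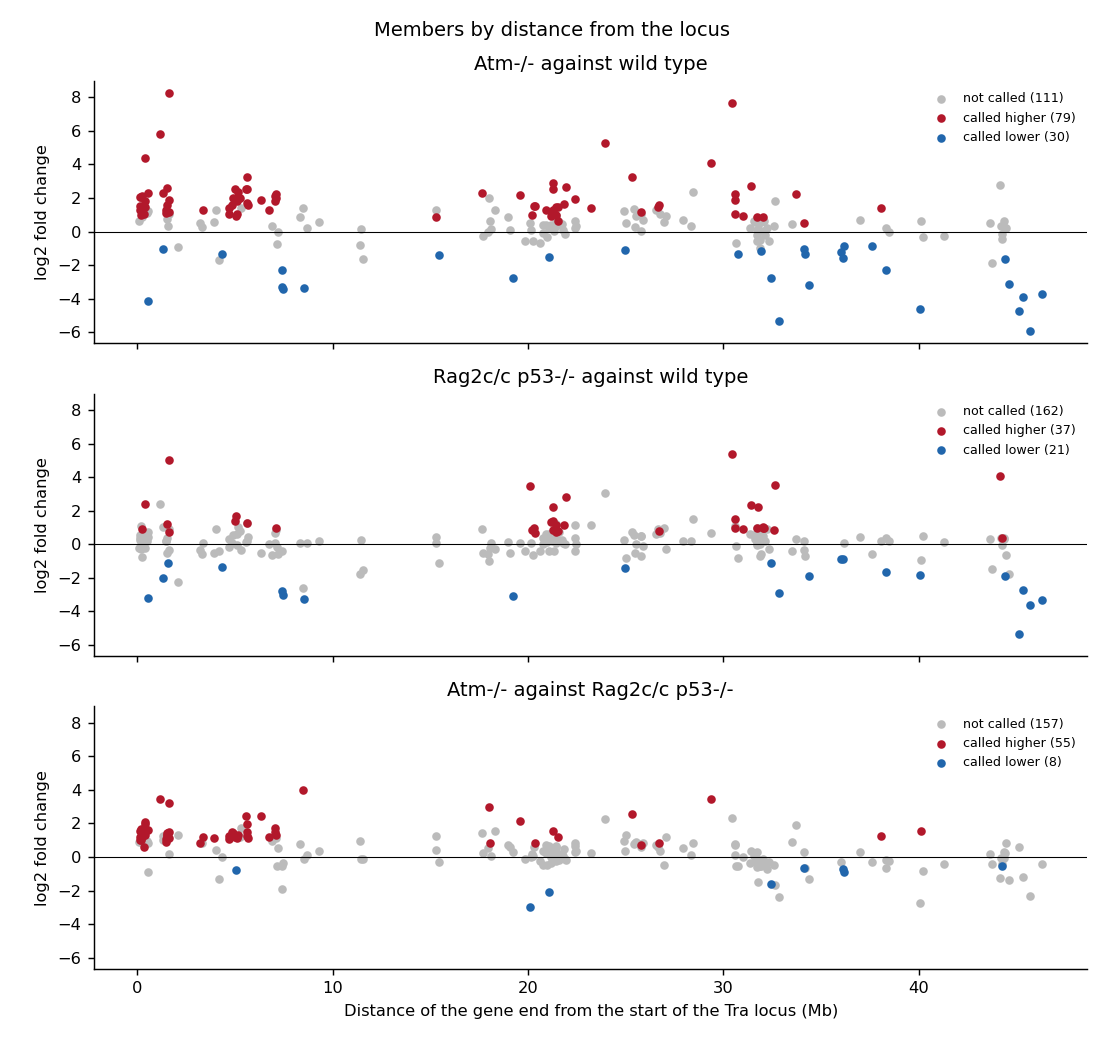
Log2 fold change (y axis) of each member against the distance of its end from the start of the locus (x axis, Mb) in 3 comparisons, with members called higher in red, called lower in blue and the rest in grey. Red points crowd within about 10 Mb of the locus in the Atm-/- comparisons. Against wild type they also lie farther out, with 11 of 25 members in the fifth block (20.99 to 22.42 Mb), as in the third. The legends give the counts of 79, 37 and 55 called higher.

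The functional lists were counted in the other comparisons too, where 17.4% and 19.7% of all genes were called higher and lower in Rag2c/c p53-/- lymphomas against wild type thymus, and 5.08% and 6.33% in Atm-/- against Rag2c/c p53-/- lymphomas. Over all members these shares were 16.8% and 9.55%, and 25% and 3.64%. Cell cycle and growth genes gave 3 higher and none lower of 10 by limma in Rag2c/c p53-/- lymphomas against wild type thymus, and 6 higher in Atm-/- against Rag2c/c p53-/- lymphomas. For DNA repair and replication genes these counts were 4 higher with 2 lower, and 6 higher. Chromatin and RNA regulators gave 2 higher with 1 lower, and 6 higher. Metabolic genes gave 10 higher with none lower by limma in Rag2c/c p53-/- lymphomas, and 4 higher with 2 lower between the lymphoma groups. By position, limma called 17, 16 and 10 of 25 members higher in Atm-/- than in Rag2c/c p53-/- lymphomas in the first 3 blocks, and 4, 2, 3, 1 and 2 in the blocks beyond.

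At the level threshold, the last members admitted were Ptprg and Anxa8, which reached 10 in 4 and in 3 libraries, and the first genes left out were Sncg and Vstm4, with 2 libraries at or above 10. At the position threshold, Mettl3 and Sall2 were the last members inside, and the receptor segments Trav1 and Trav2 the first genes beyond. In all, 172 members reached 10 in every library.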

How the data were processed

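Polyadenylated RNA from single-cell suspensions of thymus was sequenced from 13 mice with a stranded mRNA kit, per the labels. Tools of the authors, per the labels, were bcl2fastq 1.8.3, STAR 2.4.0g1, Picard and DESeq2 1.6.3, with builds mm10 and GRCm38. The read counter, its strand setting and the annotation release are not given in the sources used here. The deposited table gives a score per gene and library, namely counts that the authors divided by library size factors and rounded to whole numbers. Columns of the authors' own comparisons (group means, fold changes, p-values) were not used.

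Values were taken to log2(value + 1). The 15872 genes reaching 10 in 3 or more of 13 libraries entered 1 fit in limma 3.58.1 (R 4.3.3) with 3 groups, a mean-variance trend and robust moderation, and p-values were adjusted over all of them by the method of Benjamini and Hochberg. Fold changes on this scale understate changes of low genes. A gene was called at an adjusted p under 0.05 and a mean of at least 10 in a compared group. All p-values are two-sided. Depth was recovered from the step between low values. Tested on simulated data with 50 genes per fold size, the Atm-/- against wild type fit called 38 and 35 at log2 changes of 2 and -2, and 19 and 15 at 1 and -1, with 7 false calls. The changed genes were a small part of the 15872, and all had a mean of at least 50. In the real comparison 44.3% of genes were called and some members lay near the level filter, so these rates may not hold there. Members, lists and tests were chosen with earlier results of these data known. Genes were named by rule: the extremes of each comparison, members in the 2.4 Mb next to the locus, the most abundant and most often called of each list, the widest ranges within a lymphoma group, and the genes at each threshold. Cdkn3, Kat6b, Atxn7, Parg and Ercc6 fall outside this rule and were named after their values were seen. No per-gene value was taken from outside the deposited table, and promoter windows came from RefSeq.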

Additional observations from a re-analysis of the deposited data

Results flagged for a closer look

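Within each lymphoma group of 5, a library was set apart where its gap to the nearest other library, divided by the range of the group, passed the 95% critical value of Dixon's test. Genes were judged on the log2(value + 1) scale, and their normalized counts are printed below. Of 186 groups of values tested, 15 were set apart, and chance flags about 1 in 20. By block, Atm-/- lymphoma 2 stood at -0.572 in the fourth block, with the others at 0.48 to 0.79. Atm-/- lymphoma 4 stood at 1.417 in the seventh block, with the others at 0.17 to 0.46.

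Of the named genes in Atm-/- lymphomas, lymphoma 4 was high for Tox4 at 10850 (others 8486 to 8983) and for Dnajc9 at 7669 (others 3349 to 3845). Lymphoma 2 was high for Rab2b at 3071 (others 1977 to 2215). It was low for Ncoa4 at 359 (others 1040 to 1386), for Anxa11 at 744 (others 3728 to 4709) and for Tlr11 at 0 (others 12 to 26). Exoc5 was high in lymphoma 1, at 7695 (others 5531 to 6059). Fezf2 was at 1 in lymphoma 5 and 0 in the others, and 1 read is worth 0.98 in lymphoma 5.

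In Rag2c/c p53-/- lymphomas, replicate 5 was high for Supt16 at 19681 (others 7650 to 9318), for Parp2 at 3180 (others 1462 to 1760) and for Gm3468 at 3 (others 0). Replicate 3 was high for Gng2 at 1012 (others 222 to 327), and replicate 4 was low for Slc39a2 at 15 (others 33 to 38).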

How the results depend on the processing

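In all, 23 alternatives were run. The requirement of a log2 change of 1 or more was applied to counts of members only, not to named genes. Under the others, no named result reversed. Of 144 calls of named genes, 100 held under every such alternative that gave a value. Of 3126 values under them, 249 lost the call, 208 of these with a library left out. With each library left out in turn, members higher in Atm-/- lymphomas against wild type thymus numbered 65 to 92 (79 in all libraries) and lower 15 to 32 (30). In Rag2c/c p53-/- lymphomas against wild type thymus they numbered 24 to 41 higher (37) and 8 to 23 lower (21), and between the lymphoma groups 32 to 60 higher (55) and 5 to 9 lower (8). Leaving out a wild type library also drops genes that pass the level filter through those 3 libraries alone. With a mean of at least 50 required, 14 members were lower in Atm-/- lymphomas and 9 in Rag2c/c p53-/- lymphomas, each against wild type thymus. With a log2 change of 1 or more required, 20 were higher in Rag2c/c p53-/- lymphomas and 3 lower in Atm-/- than in Rag2c/c p53-/- lymphomas. Fitting only the 2 lymphoma groups gave 30 higher and 5 lower, and no level filter gave 5 lower, and the cause was not tested. Leaving out wild type replicate 1 or 3, Atm-/- replicate 4 or Rag2c/c p53-/- replicate 5 also left 5 lower. Shifts per library moved by less than the spread of their group, from 0.23 to 0.50 in Atm-/- lymphoma 2 and from -0.12 to 0.16 in Rag2c/c p53-/- lymphoma 2, whose sign changed with no filter on low values. No paired analysis was possible because the labels give no replicate numbers shared between groups. Wild type replicate 2, at 6.68 M reads, and Rag2c/c p53-/- replicate 2, at 6.37 M, limit what can be read from genes near the level filter, and p-values measure the spread between these mice.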
